A study of Sus scrofa with 19 samples.

Results

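Pressure overload of the left ventricle (LV) was compared with control myocardium in 6 pigs, out of 19 pigs in the series. The members were chosen by the titles of the count files: the 3 libraries labelled Hyper and the 3 labelled Control, with 1 library per pig. All animals were female large white pigs. In the Hyper group a bare metal stent of 9 mm diameter and 20 mm length was placed in the descending thoracic aorta of juvenile pigs, and growth of the aorta around the fixed stent made an artificial isthmus stenosis. The sample labels call this stent coronary, whereas the methods of the study place it in the aorta. Control pigs are called sham-operated in the labels, and the methods of the study also speak of untreated animals. Myocardium of both groups was taken after 6 months of follow-up. Neither group carried a transgene or received a drug under test, per the labels. The other 13 libraries (5 DOX, 5 MYO, 3 RemoLV) entered the model only to estimate the spread between pigs.

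A ventricle that ejects against a raised pressure thickens its wall: cardiomyocytes add sarcomeres in parallel, and stretch-sensitive and neurohormonal signals (angiotensin, endothelin, catecholamines) act through calcineurin, kinases and TGF-ß. The state is known for a return of fetal genes such as the natriuretic peptides, for a shift from fatty acid to glucose use, and for deposition of collagen between the myocytes. The lists of genes below were set up for these processes and for the stress responses of the tissue.

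The 6 libraries held between 15634520 and 20370209 counts on genes. Library size normalization gave CPM (counts scaled to a library size of 1e6, with TMM factors), and 13552 of 25879 genes were tested. The ventricular light chain MYL2 was between 13450 and 18080 CPM in the 6 libraries, and the atrial light chain MYL4 was at most 3.10 CPM, so the myocardium had the markers of a ventricle. Markers of the blood differed among the libraries: the summed CPM of the erythroid list was 21.3, 28.5 and 120 in Hyper 1 to 3, and 352, 36.5 and 341 in Control 1 to 3. The neutrophil list summed to between 2.27 and 5.30 CPM in Hyper, and to 10.2, 4.63 and 9.59 CPM in Control 1 to 3. ADIPOQ, a hormone of fat cells, was at 22.3 CPM in Hyper 1 and 21.9 CPM in Control 2 and at most 1.42 CPM in the other 4 libraries. In bulk tissue fewer cells of a type and less RNA per cell cannot be told apart.

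The Control libraries did not form 1 group, and whether Control 2 carries a wrong label was not tested. Control 2 had its highest correlation of log2 CPM, over 13552 genes, with Hyper 1 (0.987), and correlated at 0.957 and 0.954 with Control 1 and Control 3, which correlated with each other at 0.989. The first principal component of the 6 libraries held 53.5% of the variance, and Control 1 (48.0) and Control 3 (57.1) were on one side of it, with Control 2 at -30.9 beside the Hyper libraries (between -31.2 and -20.6). The second component, with 21.6%, held Hyper 1 (31.3) and Control 2 (25.4) apart from Hyper 2 (-19.3) and Hyper 3 (-36.6). No 2 of the libraries held the same counts: over genes, the mean chi-square between Hyper 1 and Control 2 was 11.3, the lowest of the 15 pairs, followed by 13.6 between Control 1 and Control 3.

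**Figure D1:**
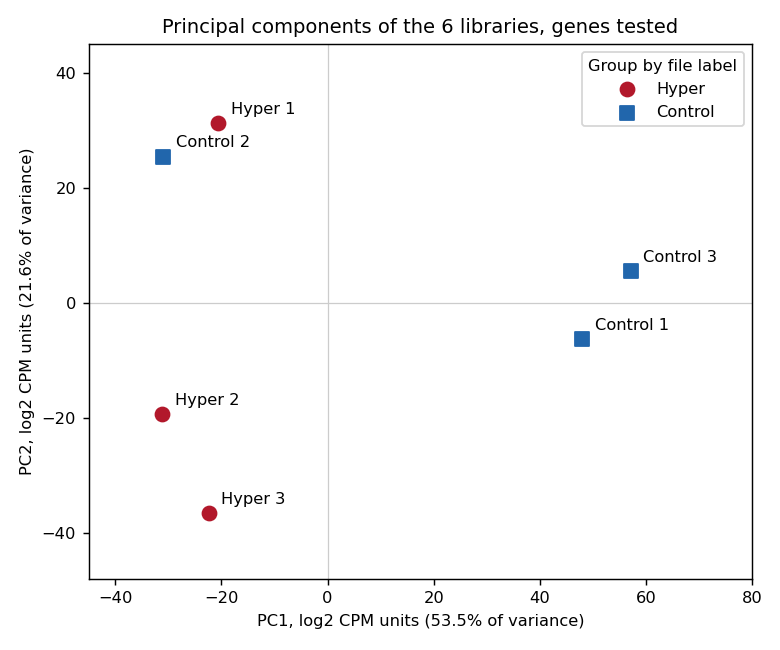
The 6 libraries on the first 2 principal components of log2 CPM, with Hyper as circles and Control as squares. Control 1 (48.0) and Control 3 (57.1) lie at the right on PC1, and Control 2 (-30.9) lies at the left with the 3 Hyper libraries.

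The names of the deposits conflict as well. In the table deposited beside the count files, the libraries labelled Control here carry the name RemoLV and those labelled RemoLV carry the name Control, and 8 of 19 columns belong to another group than the file label says. The 3 libraries that the table calls Control had a mean MYL4 of 7169 CPM and a mean MYL2 of 58.0 CPM, the opposite of the 6 libraries compared here. Under the table's names the same edgeR test on the same Hyper libraries put 4856 genes past the FDR threshold (adjusted p of at most 0.05), 2528 higher and 2328 lower. Which names are right was not settled here, and "Control" means the library labelled Control throughout. Results are given with all 6 libraries and again without Control 2. Leaving out Control 2 was decided with its values known, so the p-values without it are too small and are no independent support for any difference.

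With all 6 libraries, no gene passed the FDR threshold (adjusted p of at most 0.05, edgeR quasi-likelihood test), which is 0% of 13552 genes, and the lowest adjusted p was 0.0625. At an unadjusted p under 0.05 by the same edgeR test, 2418 genes differed, 1124 of them higher (8.29%) and 1294 lower (9.55%) in Hyper. DESeq2, fitted to the 5 groups like the edgeR model, passed 310 genes in the same contrast. The 3 Hyper libraries lay above all 3 Control libraries in 765 genes (5.64%) and below all 3 in 556 genes (4.10%). With 3 libraries against 3, an exact permutation test cannot reach a 2-sided p below 0.1. A lack of overlap alone therefore does not set a gene apart. Without Control 2, 2538 of 13792 genes passed the FDR threshold, 1285 higher (9.32%) and 1253 lower (9.08%). Of these, 210 also had a log2 fold change of at least 2 in size (a DEG below), 100 higher and 110 lower, whereas there was no DEG with all 6. Of the 2527 genes that passed without Control 2 and were tested with it, 437 had no overlap between the groups of 3. In 1660 the sign was the same and the unadjusted p was under 0.05 with all 6 libraries by edgeR. Both fits share every library but Control 2, so these counts are no independent support.

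**Figure D2:**
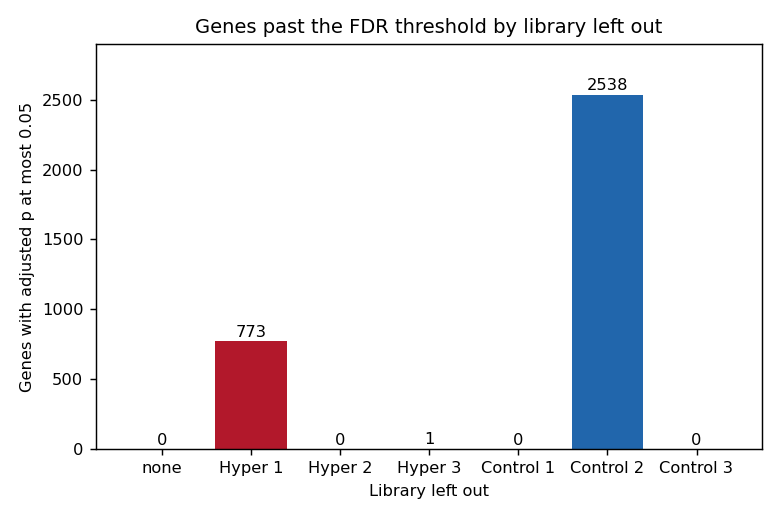
Number of genes with an adjusted p of at most 0.05 (edgeR) in Hyper against Control, with no library left out and with each of the 6 left out in turn. Only the bars for Hyper 1 (773) and Control 2 (2538) rise above 1 gene.

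The count turned on 2 libraries. It was 773 without Hyper 1, 1 without Hyper 3, and 0 without Hyper 2, Control 1 or Control 3. On a scale where the mean of Control 1 and 3 is 0 and that of Hyper is 1, Control 2 had a median position of 1.01 (interquartile range 0.796 to 1.22) over the 2527 genes, and was nearer to Hyper in 93.7% of them. These genes were chosen by the difference of Hyper from Control 1 and 3, so the scale describes where other libraries lie and tests nothing. On it the 10 DOX and MYO libraries had medians between 0.726 and 1.16 and the 3 RemoLV libraries between 1.12 and 1.20. By these medians the libraries of the other groups, like Control 2, lay nearer to Hyper than to Control 1 and 3. Since the genes were chosen by the distance of Control 1 and 3 from Hyper, the scale cannot show which libraries are unusual.

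**Figure D3:**
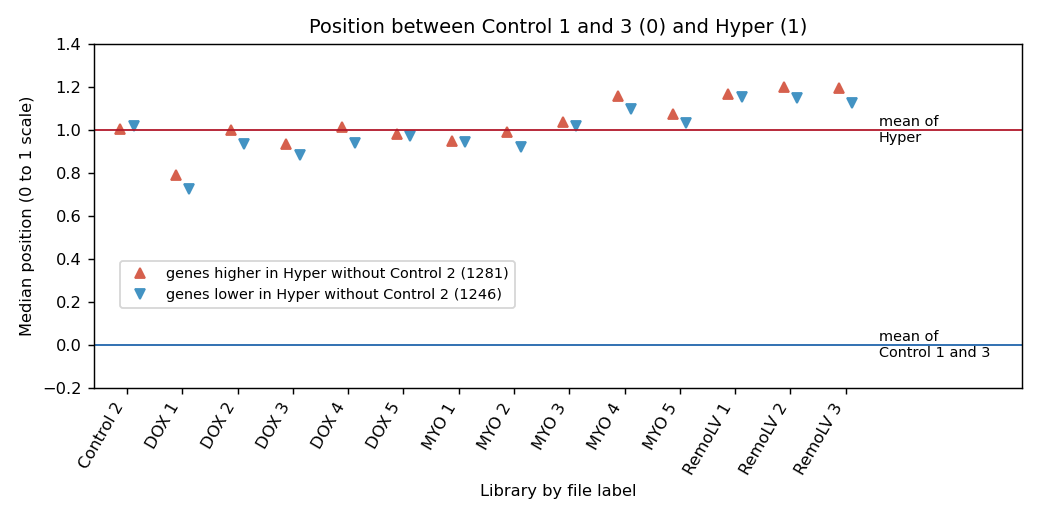
Median position of each further library between the mean of Control 1 and 3 (0) and the mean of Hyper (1), over the genes that were higher (1281, triangles up) or lower (1246, triangles down) in Hyper without Control 2. Control 2 lies at 1.00 and 1.02, and the DOX, MYO and RemoLV libraries lie between 0.726 and 1.20.

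Some genes were higher in Hyper without overlap between the groups of 3, Control 2 included. MT3, a zinc- and copper-binding metallothionein, was at 27.3, 93.4 and 122 CPM in Hyper and 27.2, 12.9 and 14.3 CPM in Control. Its groups were separated by the narrow gap between Hyper 1 and Control 1, and its log2 fold change was 2.16 (SE 0.54, adjusted p = 0.111). LPCAT4, an acyltransferase of phospholipid remodelling, was at 29.5, 33.3 and 27.0 CPM in Hyper and 7.99, 19.1 and 7.05 CPM in Control. Here Control 2 lay between the groups, and the log2 fold change was 1.38 (SE 0.29, adjusted p = 0.0894) with it and 1.99 (SE 0.24, adjusted p = 9.48e-05) without it.

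Other genes that were higher without overlap were SLC26A10 (log2 fold change 1.32), ALS2CL (1.34) and KIT (1.50), the receptor of stem cell factor. SLC26A10 was at 8.31, 15.8 and 16.4 CPM in Hyper and 4.93, 6.77 and 4.44 CPM in Control, with Control 2 closer to the other Controls than to Hyper. KIT was at 20.96, 28.7 and 31.6 CPM in Hyper and 4.03, 18.8 and 5.57 CPM in Control, so its groups were split by the gap between 18.8 and 20.96. Without Control 2 both passed, KIT with a log2 fold change of 2.49 (SE 0.66, adjusted p = 0.0160) and SLC26A10 with 1.52 (SE 0.29, adjusted p = 0.00247).

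Among genes that were higher in Hyper against Control 1 and 3, Control 2 often sat with Hyper. SLC40A1, ferroportin, which exports iron from cells, was at 121, 119 and 129 CPM in Hyper and 38.0, 116 and 29.7 CPM in Control. NREP was at 232, 151 and 211 CPM in Hyper and 39.3, 184 and 32.9 CPM in Control. RHPN2 was at 8.24, 4.74 and 6.77 CPM in Hyper and at 1.19, 8.61 and 1.27 CPM in Control. In each the level of Control 2 was within or close to the Hyper range and 3 times or more that of Control 1 and of Control 3. Without Control 2 the log2 fold changes were 1.86 (SE 0.23, adjusted p = 0.000113) for SLC40A1, 2.45 (SE 0.35, adjusted p = 0.000411) for NREP and 2.41 (SE 0.35, adjusted p = 0.000411) for RHPN2. With it they were 1.01, 1.21 and 0.81, with adjusted p of 0.168, 0.209 and 0.400. GRAMD1C, a sterol carrier at membrane contacts, and RFX2, a transcription factor of ciliated cells, had log2 fold changes of 2.79 and 3.05 without Control 2, and of 0.66 and 1.98 with it.

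Promoters are shown for 5 of the genes that were lower in Hyper without Control 2, because they hold the letters of a motif bound by factors of their pathway. Each is the 300 bases from 250 before to 50 after the RefSeq gene start on Sscrofa11.1, written 5′ to 3′ on the strand of the gene, with matches in capitals. In CHORDC1 (chr9:23208543-23208842, minus strand), DNAJA1 (chr10:33445507-33445806, minus strand) and HSPA8 (chr9:49986711-49987010, minus strand) the capitals mark the heat shock element letters GAANNTTCNNGAA, or their reverse TTCNNGAANNTTC. These 2 forms can overlap each other, as the 3 matches in CHORDC1 do. In SOCS3 (chr12:3643582-3643881, plus strand) and CCL2 (chr12:40799964-40800263, minus strand) they mark TTCNNNGAA, the letters bound by STAT factors, which read alike on both strands.
CHORDC1: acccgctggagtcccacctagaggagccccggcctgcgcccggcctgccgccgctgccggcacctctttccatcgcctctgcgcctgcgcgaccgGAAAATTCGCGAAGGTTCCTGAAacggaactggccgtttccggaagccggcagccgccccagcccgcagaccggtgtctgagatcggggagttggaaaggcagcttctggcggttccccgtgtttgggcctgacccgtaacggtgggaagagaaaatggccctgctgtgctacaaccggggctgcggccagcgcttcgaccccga
DNAJA1: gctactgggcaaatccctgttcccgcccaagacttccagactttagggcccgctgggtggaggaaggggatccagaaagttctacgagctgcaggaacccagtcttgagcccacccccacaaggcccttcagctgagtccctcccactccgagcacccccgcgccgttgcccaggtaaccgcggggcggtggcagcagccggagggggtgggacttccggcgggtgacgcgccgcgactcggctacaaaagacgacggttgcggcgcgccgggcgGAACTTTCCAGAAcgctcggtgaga
HSPA8: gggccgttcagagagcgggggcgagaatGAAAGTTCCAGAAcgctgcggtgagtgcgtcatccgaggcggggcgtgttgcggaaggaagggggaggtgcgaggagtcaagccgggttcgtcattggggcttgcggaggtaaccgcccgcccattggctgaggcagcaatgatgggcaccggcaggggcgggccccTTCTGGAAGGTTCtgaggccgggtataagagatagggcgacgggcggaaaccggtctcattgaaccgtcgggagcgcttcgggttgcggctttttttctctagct
SOCS3: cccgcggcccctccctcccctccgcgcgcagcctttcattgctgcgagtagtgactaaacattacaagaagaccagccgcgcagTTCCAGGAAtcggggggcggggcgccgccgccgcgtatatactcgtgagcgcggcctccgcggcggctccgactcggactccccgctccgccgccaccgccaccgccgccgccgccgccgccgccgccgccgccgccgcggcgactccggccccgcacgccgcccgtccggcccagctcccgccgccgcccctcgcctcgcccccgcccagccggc
CCL2: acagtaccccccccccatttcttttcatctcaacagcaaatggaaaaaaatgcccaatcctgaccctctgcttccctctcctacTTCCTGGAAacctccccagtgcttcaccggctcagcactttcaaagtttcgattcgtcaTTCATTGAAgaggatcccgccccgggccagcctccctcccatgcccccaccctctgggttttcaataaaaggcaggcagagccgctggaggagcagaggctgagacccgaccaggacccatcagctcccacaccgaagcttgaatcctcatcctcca

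The heat shock element letters stood in 74 of 19569 promoters of protein-coding genes (0.378%), and in those of 6 of the 30 tested genes of the heat shock list. They were in 5 of the 12 members that passed as lower without Control 2 and in 1 of the other 18. TTCNNNGAA stood in 7.12% of all promoters and in 5 of 25 on the list of NF-kappaB and cytokine genes, 4 of the 8 that passed as lower and 1 of the other 17. For the integrated stress response the letters TGATGNAA or TTNCATCA, bound by ATF4 with C/EBP factors, were in 2.81% of all promoters, in none of the 9 members that passed as lower and in 3 of the other 12 found in the annotation. The motifs were chosen with the results known. A match describes the letters in this window and no more.

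Of 30 chaperone genes tested, 12 were lower in Hyper than in Control 1 and 3 and the other 18 did not pass. Chaperones fold new and damaged proteins, and heat shock factor raises their transcription under stress. With all 6 libraries 8 of the 30 tested genes of the list were lower at an unadjusted p under 0.05 by edgeR and none higher (26.7% lower, beside 9.55% of all genes, with a median log2 fold change of -0.39, against 0.01 over all genes tested). Without Control 2, 12 passed the FDR threshold as lower and none as higher (40% lower, beside 9.08% of all genes, with a median of -0.55, against 0.03 over all genes). CHORDC1, a partner of HSP90, was at 52.2, 27.4 and 28.8 CPM in Hyper and 127, 25.8 and 165 CPM in Control. HSPH1, which reloads HSP70 with nucleotide, was at 35.5, 27.8 and 28.4 CPM in Hyper and 114, 20.7 and 129 CPM in Control. HSPA8, the constitutive HSP70, was at 1417, 1059 and 1058 CPM in Hyper and 2571, 984 and 2839 CPM in Control. In all 3 genes, as in DNAJA1 (163, 116 and 112 against 340, 113 and 401 CPM), Control 2 was below every Hyper library or close to the lowest.

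Without Control 2 the log2 fold changes of these genes were -2.01 for CHORDC1 (SE 0.35, adjusted p = 0.00139), -1.99 for HSPH1 (SE 0.42, adjusted p = 0.00449), -1.51 for DNAJA1 (SE 0.28, adjusted p = 0.00208) and -1.20 for HSPA8 (SE 0.26, adjusted p = 0.00494). With Control 2 they were -1.55, -1.52, -1.13 and -0.86, and no adjusted p was below 0.140. HSPE1, the mitochondrial co-chaperonin, had the next lowest p after CHORDC1, with 241, 208 and 208 CPM in Hyper and 329, 221 and 372 CPM in Control (log2 fold change -0.68, SE 0.13, adjusted p = 0.00204 without Control 2).

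Genes of the integrated stress response, which ATF4 induces when amino acids or protein folding fail, had the highest share of members at a low p with all 6 libraries. Of 22 tested, 10 were lower and 1 higher at an unadjusted p under 0.05 by edgeR (45.5% and 4.55%, beside 9.55% and 8.29% of all genes, with a median log2 fold change of -0.72). Without Control 2, 9 passed as lower and 1 as higher (40.9% and 4.55%, beside 9.08% and 9.32%, with a median of -0.89). SLC1A4, a carrier of neutral amino acids (chromosome 3, 76938102 to 76970519), had the most negative log2 fold change among genes without overlap that had a symbol, an unadjusted p under 0.05 by edgeR and a mean of at least 2 log2 CPM. It was at 5.70, 6.40 and 7.24 CPM in Hyper and 40.2, 9.50 and 92.2 CPM in Control. Control 2 was above every Hyper library but far below the other Controls, and the log2 fold change was -2.87 (SE 0.53, adjusted p = 0.0894) with it and -3.36 (SE 0.37, adjusted p = 6.01e-05) without it.

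CEBPG, a C/EBP factor that pairs with ATF4, was at 21.2, 19.3 and 19.7 CPM in Hyper and 48.8, 22.1 and 84.5 CPM in Control. Its Hyper values were close together, Control 2 lay just above them, and the log2 fold change was -1.37 (SE 0.29, adjusted p = 0.0894), or -1.74 (SE 0.18, adjusted p = 3.60e-05) without Control 2. ATF4 itself was at 206, 175 and 166 CPM in Hyper and 442, 151 and 550 CPM in Control, with Control 2 below all Hyper libraries. ALDH18A1, an enzyme of proline synthesis, was at 31.1, 23.4 and 30.2 CPM in Hyper and 85.9, 29.0 and 92.7 CPM in Control (log2 fold change without Control 2 -1.66, SE 0.20, adjusted p = 8.98e-05). SESN2 was at 0.82, 0.83 and 1.81 CPM in Hyper and 3.81, 0.71 and 18.9 CPM in Control, so Control 3 set most of its difference. The member on the other side was DDIT4, an inhibitor of mTORC1, with 86.7, 126 and 103 CPM in Hyper and 45.2, 105 and 50.4 CPM in Control (log2 fold change 1.14, SE 0.24, adjusted p = 0.00428 without Control 2).

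Among cytokine genes 8 of 25, and among immediate-early genes 4 of 22, were lower in Hyper than in Control 1 and 3, and the other members did not pass. CCL2, the chemokine that draws monocytes, was at 3.02, 1.96 and 3.96 CPM in Hyper and 62.2, 2.14 and 60.0 CPM in Control. SOCS3, the feedback inhibitor of cytokine receptors, was at 12.2, 5.19 and 6.03 CPM in Hyper and 90.9, 2.38 and 88.4 CPM in Control. PTX3, a pentraxin of innate immunity, was at 4.60, 2.41 and 2.01 CPM in Hyper and 54.6, 1.60 and 35.3 CPM in Control. In these genes Control 1 and Control 3 lay above every Hyper library and Control 2 lay near or below the lowest one, so the groups of 3 overlapped. Without Control 2 the log2 fold changes were -4.35 for CCL2 (SE 1.05, adjusted p = 0.00955), -3.52 for SOCS3 (SE 0.84, adjusted p = 0.00870) and -3.90 for PTX3 (SE 0.99, adjusted p = 0.0126). With Control 2 they were -3.78, -2.95 and -3.33, with adjusted p of 0.142, 0.167 and 0.165.

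Of the 25 NF-kappaB and cytokine genes tested, 7 were lower and 0 higher at an unadjusted p under 0.05 by edgeR with all 6 libraries (28% lower, beside 9.55% of all genes, with a median log2 fold change of -0.46). Without Control 2, 8 passed as lower and none as higher (32% lower, beside 9.08%, with a median of -0.60). The 22 immediate-early genes, which are transcribed within minutes of a stimulus and include those of tissue handling, had a median of -0.71 with all 6 libraries and -1.03 without Control 2. In both fits 4 were lower, at an unadjusted p under 0.05 with all 6 and past the FDR threshold without Control 2 (18.2%, beside 9.55% and 9.08% of all genes), and none was higher. JUNB was at 15.6, 5.04 and 8.18 CPM in Hyper and 77.9, 5.11 and 58.3 CPM in Control. NR4A2, a nuclear receptor of this class, was at 19.3, 12.3 and 15.3 CPM in Hyper and 56.1, 18.8 and 72.2 CPM in Control. IER3 was at 11.3, 11.06 and 15.6 CPM in Hyper and 66.8, 7.13 and 46.0 CPM in Control, again with Control 2 on the Hyper side.

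SLC22A15, an organic cation carrier, TGM3, a transglutaminase, and ADAMTS4, an aggrecan-cleaving protease, were among the 6 most negative changes without Control 2 by the rule for named genes, which asks for an adjusted p of at most 0.05 and a mean of at least 2 log2 CPM (log2 fold changes -3.75, -3.92 and -3.98). SLC22A15 was at 2.06, 1.66 and 2.88 CPM in Hyper and 29.3, 1.78 and 30.4 CPM in Control. Its 2 high Control values were close to each other, and its adjusted p was 6.90e-05 without Control 2 and 0.0894 with it.

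**Figure D4:**
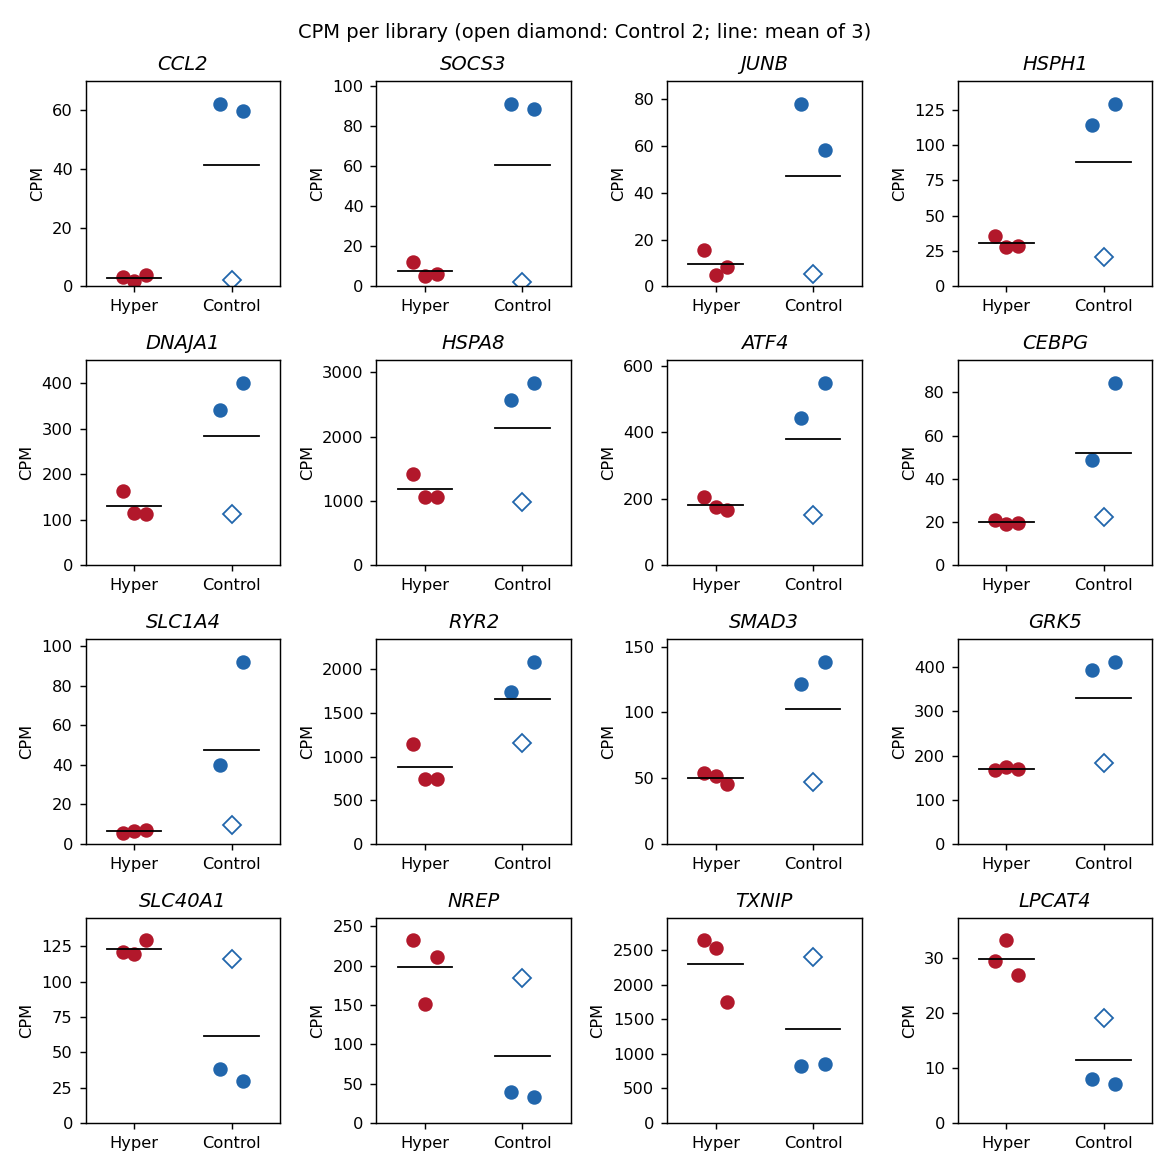
CPM of 16 genes in each library, with Hyper in red, Control in blue, Control 2 as an open diamond and the mean of 3 libraries as a line. In CCL2 the Control 1 and 3 values (62.2 and 60.0) lie far above Control 2 (2.14) and Hyper (1.96 to 3.96), and in SLC40A1 Control 2 (116) lies with Hyper (119 to 129).

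Of 28 tested genes of hypertrophy and stretch, 3 were lower and 1 higher at an unadjusted p under 0.05 by edgeR (10.7% and 3.57%, beside 9.55% and 8.29% of all genes). Without Control 2, 3 passed as higher and 3 as lower (10.7% each, beside 9.32% and 9.08%; median log2 fold change -0.14 and -0.29). ACTA1, the skeletal actin of the fetal programme, was at 10290, 14230 and 13590 CPM in Hyper and 16560, 11280 and 15720 CPM in Control (log2 fold change -0.19, SE 0.23, adjusted p = 0.688). ANKRD1, a stretch-responsive protein of the sarcomere, was at 3970, 3397 and 2893 CPM in Hyper and 4598, 3568 and 6220 CPM in Control (log2 fold change -0.49, SE 0.36, adjusted p = 0.486). NPPB, brain natriuretic peptide, was at 0.62, 2.56 and 1.81 CPM in Hyper and 2.99, 0.53 and 0.85 CPM in Control. The groups overlapped in all 3 genes, and NPPB was at most 2.99 CPM in any of these libraries. NPPA and MYH7 were paired with no gene ID here, and MYH6, whose sequence is close to that of its neighbour MYH7, was at 31940 to 49810 CPM with overlapping groups and is uncertain for that reason.

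MYOCD, the coactivator of serum response factor, FHL2, a LIM protein that restrains calcineurin, and MEF2D, a transcription factor of the hypertrophic response, were the 3 lower members. MYOCD was at 17.3, 17.2 and 28.4 CPM in Hyper and 49.0, 19.3 and 47.9 CPM in Control. FHL2 was at 282, 135 and 303 CPM in Hyper and 554, 264 and 569 CPM in Control. Their log2 fold changes without Control 2 were -1.21 (SE 0.23, adjusted p = 0.00232) and -1.23 (SE 0.35, adjusted p = 0.0213), and MEF2D had -1.06 (SE 0.23, adjusted p = 0.00552). SYNPO2L, a Z-disc protein, was higher (594, 751 and 822 against 436, 712 and 377 CPM, log2 fold change without Control 2 0.83, SE 0.18, adjusted p = 0.00552).

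Of 21 sarcomere genes, 6 were lower and 1 higher at an unadjusted p under 0.05 by edgeR with all 6 libraries (28.6% and 4.76%, beside 9.55% and 8.29% of all genes). Without Control 2, 6 passed as lower and 0 as higher (28.6% lower, beside 9.08%). ACTN2, the alpha-actinin of the Z-disc, was at 4719, 4204 and 4298 CPM in Hyper and 6492, 4281 and 7152 CPM in Control (log2 fold change without Control 2 -0.63, SE 0.14, adjusted p = 0.00610). FLNC, filamin C, was at 1552, 2336 and 2192 CPM in Hyper and 5177, 1537 and 5668 CPM in Control (-1.42, SE 0.41, adjusted p = 0.0226). PDLIM5, an adaptor at the Z-disc with the lowest p on the list, had -0.58 (SE 0.13, adjusted p = 0.00564). TCAP, telethonin, went the other way with 2211, 3697 and 3995 CPM in Hyper and 2855, 2052 and 2503 CPM in Control, and did not pass with or without Control 2 (adjusted p = 0.234 and 0.288).

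Of 20 calcium cycling genes, 5 were lower and 1 higher, at an unadjusted p under 0.05 with all 6 libraries by edgeR and past the FDR threshold without Control 2. These are 25% lower and 5% higher, beside 9.55% and 8.29% of all genes in the first test and 9.08% and 9.32% in the second. RYR2, the release channel of the sarcoplasmic reticulum, was at 1141, 747 and 746 CPM in Hyper and 1746, 1156 and 2090 CPM in Control. SLC8A1, the sodium-calcium exchanger, was at 772, 628 and 659 CPM in Hyper and 897, 782 and 1130 CPM in Control. In both, every Hyper library was below every Control library, although Hyper 1 came close to Control 2. The log2 fold change of RYR2 was -0.92 (SE 0.23, adjusted p = 0.108) and -1.13 (SE 0.22, adjusted p = 0.00268) without Control 2, and that of SLC8A1 was -0.45 (SE 0.14, adjusted p = 0.143) and -0.56 (SE 0.14, adjusted p = 0.0112). ATP2A2, the calcium pump SERCA2, and CASQ2, the calcium store of the reticulum, had log2 fold changes without Control 2 of -0.53 (SE 0.17, adjusted p = 0.0414) and -0.61 (SE 0.14, adjusted p = 0.00819).

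Adrenergic signalling had 3 lower and 2 higher members of 20 at an unadjusted p under 0.05 by edgeR (15% and 10%, beside 9.55% and 8.29% of all genes). GRK5, a kinase that turns off beta-adrenergic receptors, was at 166, 174 and 170 CPM in Hyper and 393, 183 and 412 CPM in Control. The groups did not overlap, by a narrow gap to Control 2, and the log2 fold change was -0.95 (SE 0.23, adjusted p = 0.102), or -1.24 (SE 0.17, adjusted p = 0.000249) without Control 2. PRKAR1A, a regulatory subunit of protein kinase A, was at 520, 389 and 412 CPM in Hyper and 862, 455 and 1079 CPM in Control. ADCY6, a cardiac adenylyl cyclase, was at 411, 423 and 483 CPM in Hyper and 237, 435 and 193 CPM in Control (log2 fold change without Control 2 1.03, SE 0.22, adjusted p = 0.00494). Of 17 genes of the renin-angiotensin, endothelin and natriuretic systems, 2 were higher and 1 lower (11.8% and 5.88%, beside 8.29% and 9.55% of all genes). AGT, angiotensinogen, had the lowest p with 121, 48.3 and 223 CPM in Hyper and 37.6, 77.3 and 43.4 CPM in Control, groups that overlapped, and did not pass without Control 2 either (log2 fold change 1.69, SE 0.59, adjusted p = 0.0536).

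No difference in the collagens, the fibres of fibrotic tissue, was detected beyond the spread between pigs with all 6 libraries. Of 30 tested, 2 were lower and 1 higher at an unadjusted p under 0.05 by edgeR (6.67% and 3.33%, beside 9.55% and 8.29% of all genes). Without Control 2, 2 passed as higher and 1 as lower (6.67% and 3.33%, beside 9.32% and 9.08%), and the median log2 fold change was 0.03 with it and 0.12 without it. COL1A1 was at 622, 246 and 623 CPM in Hyper and 622, 550 and 331 CPM in Control (log2 fold change -0.01, SE 0.32, adjusted p = 0.991). The sum over the collagens was between 2783 and 5258 CPM in Hyper and between 3535 and 4860 CPM in Control. COL12A1, a collagen of fibril surfaces, was the one that passed as lower, with 6.18, 2.86 and 8.78 CPM in Hyper and 18.5, 4.75 and 21.02 CPM in Control (log2 fold change -1.73, SE 0.40, adjusted p = 0.00794 without Control 2).

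In the wider list of 42 matrix genes, 5 were lower and 1 higher at an unadjusted p under 0.05 by edgeR (11.9% and 2.38%, beside 9.55% and 8.29% of all genes). Without Control 2, 7 passed as lower and 1 as higher (16.7% and 2.38%, beside 9.08% and 9.32%). THBS1, thrombospondin 1, an activator of latent TGF-ß, was at 141, 64.0 and 108 CPM in Hyper and 879, 144 and 892 CPM in Control. TNC, tenascin C, was at 1.65, 2.86 and 5.10 CPM in Hyper and 19.9, 8.37 and 16.6 CPM in Control. In both, all Hyper libraries were below all Control libraries, for THBS1 by a narrow gap to Control 2. Their log2 fold changes were -2.61 (SE 0.92, adjusted p = 0.176) and -2.21 (SE 0.56, adjusted p = 0.117), and -3.09 (SE 0.92, adjusted p = 0.0281) and -2.50 (SE 0.58, adjusted p = 0.00737) without Control 2. ADAMTS1, a protease of versican, was at 96.6, 40.4 and 51.7 CPM in Hyper and 266, 60.8 and 266 CPM in Control.

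TGF-ß signalling had 7 lower and 0 higher members of 39, both at an unadjusted p under 0.05 with all 6 libraries by edgeR and past the FDR threshold without Control 2. The share lower was 17.9% in each, beside 9.55% of all genes in the first and 9.08% in the second. SMAD3, the effector that carries the signal to the nucleus, was at 53.8, 51.7 and 45.8 CPM in Hyper and 122, 46.9 and 139 CPM in Control. Control 2 lay within the Hyper range, and the log2 fold change was -1.37 (SE 0.12, adjusted p = 1.20e-05) without it and -1.02 (SE 0.24, adjusted p = 0.102) with it. SMURF2, a ubiquitin ligase of SMADs, was at 39.99, 33.3 and 27.8 CPM in Hyper and 70.02, 36.6 and 70.2 CPM in Control. INHBA, a chain of activin, was at 5.70, 3.09 and 4.83 CPM in Hyper and 24.3, 4.99 and 13.3 CPM in Control.

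Of 33 genes of fatty acid oxidation, 3 were lower and 0 higher at an unadjusted p under 0.05 by edgeR (9.09% lower, beside 9.55% of all genes). Without Control 2, 4 passed as lower and 3 as higher (12.1% and 9.09%, beside 9.08% and 9.32%), with a median log2 fold change of -0.01 and -0.08. UCP3, an uncoupling protein under the control of PPAR factors, was at 0.27, 0.23 and 0.27 CPM in Hyper and 5.22, 1.07 and 4.87 CPM in Control. PPARA, the fatty acid receptor that drives these genes, was at 4.74, 4.21 and 8.31 CPM in Hyper and 30.9, 4.04 and 51.9 CPM in Control. LPL, which releases fatty acids from lipoproteins, was at 2280, 1435 and 1944 CPM in Hyper and 3317, 1946 and 3836 CPM in Control. Without Control 2 their log2 fold changes were -4.25 (SE 0.76, adjusted p = 0.00169), -2.84 (SE 0.53, adjusted p = 0.00224) and -0.93 (SE 0.21, adjusted p = 0.00599). UCP3 was low in all libraries, and its groups did not overlap. The 3 members that passed as higher without Control 2 were MLYCD (log2 fold change 1.53, SE 0.38, adjusted p = 0.0107), PPARGC1B (1.07, SE 0.30, adjusted p = 0.0210) and SLC25A20 (0.64, SE 0.13, adjusted p = 0.00420).

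Of 29 genes of glucose uptake and glycolysis, 5 were lower and 1 higher at an unadjusted p under 0.05 by edgeR (17.2% and 3.45%, beside 9.55% and 8.29% of all genes). Without Control 2, 5 passed as lower and 0 as higher (17.2% lower, beside 9.08%). PFKM, the muscle phosphofructokinase, was at 1607, 1252 and 1364 CPM in Hyper and 2013, 1635 and 1839 CPM in Control, without overlap. SLC2A4, the insulin-dependent glucose carrier GLUT4, was at 225, 321 and 399 CPM in Hyper and 255, 242 and 239 CPM in Control (log2 fold change 0.36, SE 0.16, adjusted p = 0.263). The 75 nuclear-encoded genes of oxidative phosphorylation had a median of -0.05, with 2 higher and 0 lower at that p (2.67% higher, beside 8.29% of all genes). Without Control 2 their median was -0.15, and 1 passed as higher and 3 as lower (1.33% and 4%, beside 9.32% and 9.08%). The 13 encoded by the mitochondrial genome had a median of -0.37, with 1 lower and 0 higher at an unadjusted p under 0.05 by edgeR (7.69% lower, beside 9.55% of all genes). Without Control 2 their median was -0.58, and 3 passed as lower and 0 as higher (23.1% lower, beside 9.08% of all genes). ND2, a subunit of complex I, was at 8540, 10450 and 5432 CPM in Hyper and 17870, 7799 and 18570 CPM in Control. The sum of these 13 genes was between 194500 and 314100 CPM in Hyper and between 215000 and 413700 CPM in Control. These sums are not shares of the libraries, because CPM here includes the TMM factors. The factors were 0.7349 in Control 1 and 0.6963 in Control 3, against 0.9649 in Control 2 and 0.8345 to 0.9544 in Hyper.

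FoxO targets and genes of muscle atrophy, which FoxO factors raise when insulin signalling is low, had members on both sides. Of 30 tested, 5 were lower and 3 higher at an unadjusted p under 0.05 by edgeR with all 6 libraries, 16.7% and 10% beside 9.55% and 8.29% of all genes, and none passed the FDR threshold. Without Control 2, 5 passed as higher and 6 as lower, 16.7% and 20% beside 9.32% and 9.08% of all genes. PIK3IP1, an inhibitor of PI3 kinase, was at 25.8, 37.0 and 29.3 CPM in Hyper and 6.72, 27.1 and 6.21 CPM in Control. TXNIP, which limits glucose uptake, was at 2640, 2532 and 1744 CPM in Hyper and 822, 2399 and 849 CPM in Control. CITED2 was at 191, 120 and 117 CPM in Hyper and 39.8, 209 and 31.3 CPM in Control. Their log2 fold changes without Control 2 were 2.24 (SE 0.37, adjusted p = 0.000990), 1.46 (SE 0.41, adjusted p = 0.0219) and 2.0 (SE 0.35, adjusted p = 0.00140). BCL6, a transcriptional repressor, was lower, with 41.6, 52.5 and 43.9 CPM in Hyper and 107, 37.9 and 118 CPM in Control (-1.29, SE 0.22, adjusted p = 0.00109).

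Insulin and IGF signalling had 5 lower and 0 higher members of 24 at an unadjusted p under 0.05 by edgeR (20.8% lower, beside 9.55% of all genes), with 7 lower and 1 higher past the FDR threshold without Control 2 (29.2% and 4.17%, beside 9.08% and 9.32%). INSR, the insulin receptor, was at 47.8, 58.0 and 40.4 CPM in Hyper and 124, 38.8 and 158 CPM in Control (log2 fold change -1.53, SE 0.31, adjusted p = 0.00350 without Control 2). IGF1R was at 69.5, 71.9 and 56.5 CPM in Hyper and 102, 68.3 and 128 CPM in Control. The list of hypoxia genes had 4 lower and 1 higher of 20 at an unadjusted p under 0.05 by edgeR (20% and 5%, beside 9.55% and 8.29%). Without Control 2, 5 passed as lower and 3 as higher (25% and 15%, beside 9.08% and 9.32%), with a median of 0.02. HIF1A, of this list, was at 95.2, 72.4 and 68.9 CPM in Hyper and 168, 98.9 and 185 CPM in Control, without overlap (-0.93, SE 0.23, adjusted p = 0.112, and -1.16, SE 0.22, adjusted p = 0.00227 without Control 2). ANGPT2, which loosens the contact of vessels with their mural cells, was at 9.00, 11.8 and 7.11 CPM in Hyper and 30.5, 12.8 and 29.1 CPM in Control. Its groups did not overlap, and its log2 fold change was -1.37 (SE 0.28, adjusted p = 0.0894), or -1.68 (SE 0.23, adjusted p = 0.000284) without Control 2.

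Further lower members without overlap were RUNX1, a transcription factor of blood and of injured myocytes (3.64, 2.18 and 3.42 against 9.03, 3.74 and 11.5 CPM), APAF1, the scaffold of the apoptosome (7.90, 6.17 and 6.57 against 20.8, 8.02 and 26.9 CPM), and ERCC4, a nuclease of DNA repair (8.66, 6.17 and 5.43 against 19.3, 12.5 and 28.6 CPM). Their log2 fold changes were -1.38, -1.42 and -1.58 with all 6 libraries, and -1.73, -1.79 and -1.83 without Control 2, where each passed (adjusted p = 0.000583, 0.000892 and 0.00883). RBM20, the splicing regulator of titin, had the lowest p of 35 splicing and RNA-binding genes, of which 8 were lower and 0 higher at an unadjusted p under 0.05 by edgeR (22.9% lower, beside 9.55% of all genes) and 5 passed as lower and 0 as higher without Control 2 (14.3% lower, beside 9.08%). It was at 87.3, 65.9 and 59.8 CPM in Hyper and 151, 79.2 and 157 CPM in Control (-0.86, SE 0.25, adjusted p = 0.140, and -1.12, SE 0.23, adjusted p = 0.00427 without Control 2).

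Of 32 interferon-stimulated genes tested, 7 had all Hyper libraries below all Control libraries, against 4.10% of all genes, and none had the reverse. At an unadjusted p under 0.05 by edgeR 2 were lower and 0 higher (6.25% lower, beside 9.55% of all genes), and 1 passed as lower without Control 2 (3.12%, beside 9.08%), with a median log2 fold change of -0.10 and -0.11. The sum of the list was 864, 978 and 1008 CPM in Hyper 1 to 3 and 1049, 1101 and 1137 CPM in Control 1 to 3, so these sums did not overlap either. GBP1, an interferon-induced GTPase, was at 84.7, 81.3 and 89.8 CPM in Hyper and 110, 109 and 119 CPM in Control (log2 fold change -0.40, SE 0.28, adjusted p = 0.459).

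Housekeeping groups were close to the median of all genes. The 66 cytosolic ribosomal proteins had a median log2 fold change of 0.08, with 3 lower and 1 higher at an unadjusted p under 0.05 by edgeR (4.55% and 1.52%, beside 9.55% and 8.29% of all genes) and none past the FDR threshold without Control 2. The 43 proteasome genes had a median of 0.07, with 2 higher and 0 lower (4.65% higher). The 72 mitochondrial ribosomal proteins had a median of -0.01, with 4 higher and 5 lower (5.56% and 6.94%). Without Control 2 their median was -0.07, and 7 passed as lower and 0 as higher (9.72% lower, beside 9.08% of all genes). Against 9.55% of all genes lower at this p, the share was highest for the integrated stress response (10 of 22), the sarcomere (6 of 21), the NF-kappaB and cytokine genes (7 of 25) and the heat shock list (8 of 30). HBB and the neutrophil list were also higher in Control 1 and 3 than in Control 2. The part of blood cells, of mitochondrial transcripts and of tissue handling in these differences was not tested.

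**Figure D5:**
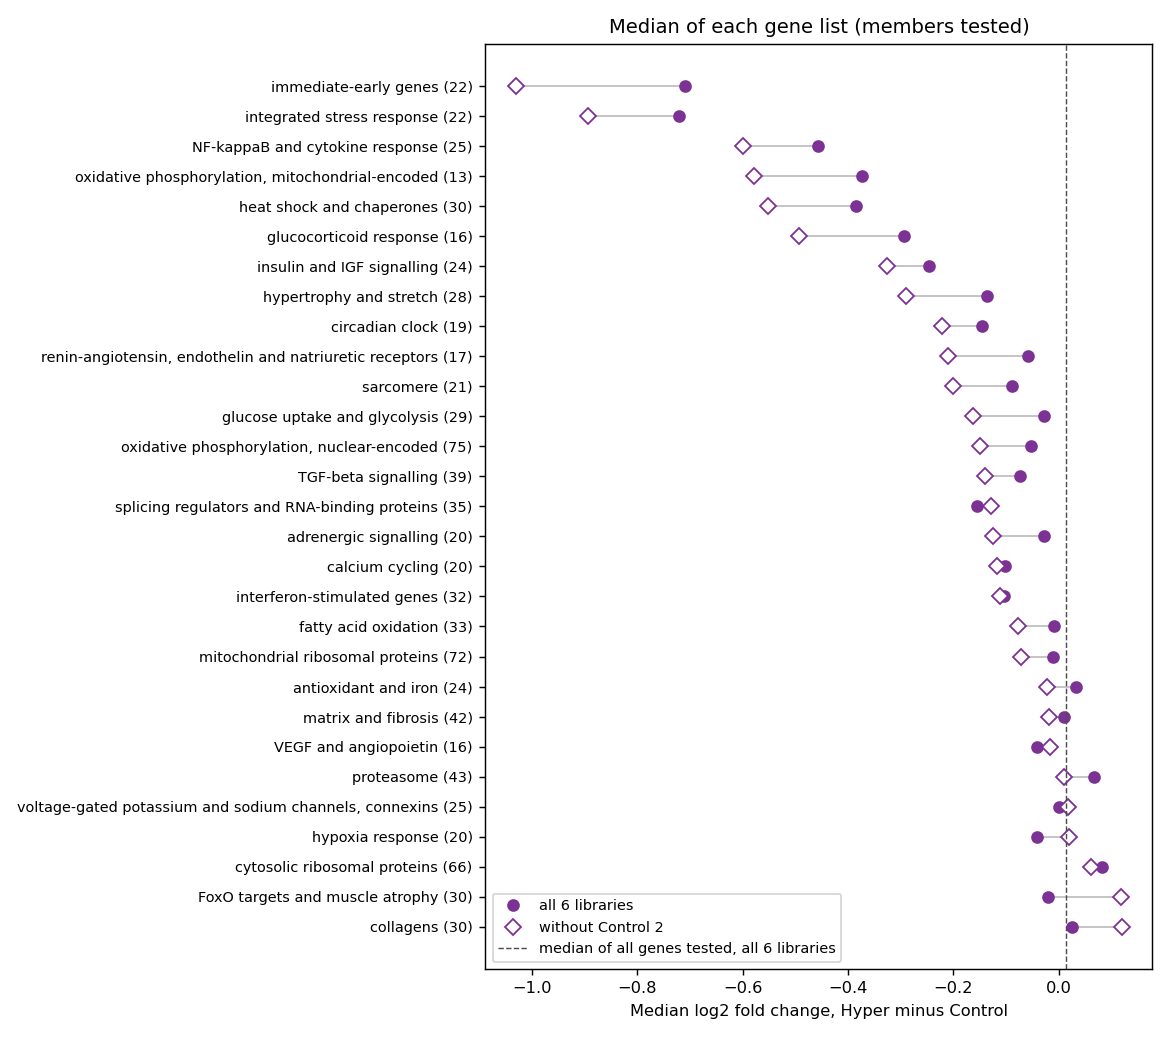
Median log2 fold change, Hyper minus Control, of each pathway list (number tested in brackets, marker lists of cell types left out), with all 6 libraries as filled circles and without Control 2 as open diamonds. Immediate-early genes (-0.71 and -1.03) and the integrated stress response (-0.72 and -0.89) lie farthest below the median of all genes tested (0.01) among the lists drawn, and collagens (0.03 and 0.12) lie beside it.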

How the data were processed

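Myocardial RNA of 19 pigs was sequenced, of which the 3 Hyper and 3 Control libraries are compared here. Per the labels and the submitters' processing notes, the authors aligned reads with STAR to Sscrofa11.1 and obtained the counts of Ensembl genes with HTSeq 0.11.1, and the deposited count files hold raw counts without normalization. A deposited table also holds log2-scale expression that the authors computed, used here only to match sample names, and fold changes and adjusted p-values of the authors' own comparisons, which were not used. No column was left without a sample (0).

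Symbols came from the reference table for 14856 gene IDs and from the authors' table for 1190, and 9833 had none (911 of those tested). Genes were kept by filterByExpr and scaled by TMM in edgeR 4.0.16 (R 4.3.3), and 1 model of the 5 groups was tested with the quasi-likelihood test and Benjamini-Hochberg adjustment over all genes, with all libraries and without Control 2. The study's methods name DESeq2, and DESeq2 1.42.0 and voom in limma 3.58.1 were alternatives. The procedure was tested on simulated data. Values are CPM per library, and log2 CPM used a prior count of 2. No source says that pigs shared a litter or batch. Coordinates and promoters came from RefSeq on Sscrofa11.1, matched by symbol.

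The members, lists and tests were chosen with earlier results of these data known. Genes were named by a rule: the 12 most positive and 12 most negative log2 fold changes among genes with a symbol, an unadjusted p under 0.05, a mean of at least 2 log2 CPM and groups without overlap (543 eligible), the 6 of each sign past the FDR threshold without Control 2 (2037 eligible), and from each list the first 2 members and the 3 lowest p. The text gives a part of these, since some are not reported here, and HSPH1, HSPA8, TXNIP, CITED2, COL1A1, SLC40A1 and some other list members were chosen after their values were seen. Library totals limit the precision of low genes. At these depths 3 counts correspond to about 0.2 CPM, and differences between genes at that level were not detectable. Other settings are in the closing section.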

Additional observations from a re-analysis of the deposited data

How the results depend on the processing

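Each group had 3 pigs, and Control 1 and 3 lay apart from Control 2 and the Hyper libraries on the first principal component. The number of genes called depended on the setting, and the cause was not tested. Genes past the FDR threshold, 0 with all 6 libraries, numbered 310 with DESeq2 (24 DEGs), 3854 with voom and sample quality weights (228 DEGs, 5620 genes at an unadjusted p under 0.05), 6 without a low-count filter (2 DEGs) and 1 with only the Hyper and Control libraries in the fit (1 DEG, 1066 at that p). The voom weights were 0.193 for Control 2, 0.351 for Hyper 1 and 2.12 for Control 1. With only those libraries and without Control 2 the numbers were 1407, 197 DEGs and 3672. Under the names of the authors' table, where Control holds the libraries labelled RemoLV, they were 4856, 676 DEGs, 6089 and 6509 genes without overlap. Leaving out each library in turn gave 0 to 2538 genes past the FDR threshold, 0 to 210 DEGs, 930 to 4517 genes at an unadjusted p under 0.05, and 1701 to 6225 genes without overlap. Fewer libraries fail to overlap more easily, so the last range cannot be set against the 1321 genes with all 6. The FDR count was 773 without Hyper 1 and 2538 without Control 2. The replicate numbers did not pair the pigs: deviations of same-numbered libraries correlated at -0.203, 0.0623 and 0.0192. A replicate block in the fit of the 6 libraries gave 135 genes past the threshold, 36 DEGs and 1256 at an unadjusted p under 0.05.

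Without Control 2, the 2538 genes became 2848 with DESeq2, 1407 with only the Hyper and Control libraries, 4142 with voom weights, and between 1441 and 3141 without 1 Hyper library in turn, alternatives chosen after the data were seen. The 83 genes followed kept their direction in every setting that gave them a value except under the table's names (UCP3 had none with at least 10 counts in every library), where 16 turned: LPCAT4 (-1.44), ALS2CL (-1.33), HSPA8 (1.07), HSPE1 (1.22), ACTN2 (0.72), PDLIM5 (0.48), LPL (2.03), PFKM (0.84), EPAS1 (0.53), INSR (1.33), IGF1R (1.31), BCL6 (1.16), ACTA1 (2.11), MYH6 (0.71), ANKRD1 (1.46) and GBP1 (1.20). Many of the 83 were chosen by their difference in these same libraries. Their kept direction was thus largely set in advance and is no independent support. Of the 83, 74 passed the FDR threshold without Control 2 and 29 with DESeq2 when Control 2 was included.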
